A study of Homo sapiens with 15 samples.

Results

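The metallothioneins described here are 8 protein-coding genes, MT2A, MT1A, MT1E, MT1F, MT1G, MT1H, MT1M and MT1X, taken by symbol from a count table of 60286 genes. Of these, 7 had a count in some library and 6 passed the filter on low counts, which left 17198 genes to test. The family was picked because gene set tests of the same counts placed it upward in every group stimulated with bacterial extracellular vesicles (BEVs). The members were thus selected on their log2 fold changes against non-stimulated cells, which are given below as a description without a test. The members are tested only for differences between stimulated groups, which did not enter that choice, while genes outside the family are also tested against NC.

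Metallothioneins are small, cysteine-rich proteins of the cytosol and nucleus that bind zinc and copper and also toxic metals such as cadmium. When free zinc rises, the zinc-sensing transcription factor MTF1 binds metal response elements (MREs) in their promoters, so the amount of metallothionein mRNA is widely used as a readout of zinc in the cell. In monocytes and macrophages these genes also respond to inflammatory signals and to oxidative stress.

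RNA was sequenced from THP-1 cells, a human monocytic leukemia line labelled wild type, in 15 libraries, 3 for each of 5 groups. The NC group received PBS. BEVs of *E. coli* strain DH5a were added at 1 μg/mL after isolation by ultracentrifugation (UC) in the EUC group and by precipitation with ϵ-poly-L-lysine (PL) in the EPL group. BEVs of *S. aureus* were added at 10 μg/mL, in SUC after UC and in SPL after PL. All cells were kept in RPMI 1640 with fetal bovine serum; the methods give 6 h of incubation, and the labels give Day 0. Species and dose changed together and cannot be told apart. No library came from cells given ϵ-PL alone, which the paper tested only for cytokine gene expression, without a significant difference from PBS. The methods describe triplicates of cells stimulated in wells and do not say whether these were set up on separate occasions, so the p-values measure only the spread between these libraries.

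The 15 count totals lay between 14399421 and 16637345. Values below are CPM, the counts scaled by the TMM-normalized library size. Of 10 genes that mark monocytic cells, 9 had at least 1 CPM in every library, and CD68 was under 1 CPM throughout. Of 12 markers of other cell types, 9 were under 1 CPM in every library; PECAM1 was above 1 CPM in all, and COL1A1 ranged from 0.64 to 5.12 CPM. In bulk RNA, fewer cells that express a gene and less RNA per cell cannot be told apart. Libraries EUC3, SUC3 and EPL1 stood apart in that short transcripts were counted more often than in the other libraries of their groups. Over 155 protein-coding genes outside the family with a canonical transcript under 600 bases, the median deviation from the other 2 libraries was 0.61 in EUC3, 0.47 in SUC3 and 0.31 in EPL1 on the log2 CPM scale. Over genes above 4000 bases it was -0.20, -0.16 and -0.17. Metallothionein transcripts are short, from 396 to 746 bases, so log2 fold changes of the members are also given without these libraries where they moved.

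All 8 genes lie within 75.6 kb of chromosome 16 (hg38, GENCODE 44), and MT1G is the only member on the minus strand. MT2A (ENSG00000125148), at chr16:56608584-56609497, is the first of the 8 members by position. Among the members it is followed by MT1E at chr16:56625475-56627112, MT1M at chr16:56632659-56633981 and MT1A at chr16:56638666-56640087. MT1F lies at chr16:56657731-56660698, MT1G at chr16:56666730-56668065, MT1H at chr16:56669814-56671129 and MT1X at chr16:56682470-56684196. In spite of the similarity of the family, none of the 100-base windows along the canonical transcripts of MT2A, MT1A, MT1E, MT1F, MT1G or MT1M was found in another gene. For MT1H, 3.4% of windows were shared with MT1HL1. For MT1X, 22.0% were shared with a noncoding gene on the same strand (ENSG00000259827) that overlaps 321 of its exon bases and is listed at 0 in all 15 libraries, so the counts of MT1X are uncertain.

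Promoters are shown because MREs are the sites that MTF1 binds in metallothionein promoters, and its binding was not measured here. The RefSeq promoter table (GRCh38.p14) held 3 members, MT2A, MT1X and MT1H, and did not hold MT1A, MT1E, MT1F, MT1G or MT1M. The 250 bases before each annotated start are printed 5′ to 3′ on the plus strand, which is the strand of all 3 genes. Capitals mark the MRE core, searched as TGCACNC or TGCGCNC on both strands, and the AP-1 site, searched as TGAGTCA or TGACTCA.
MT2A, chr16:56608334-56608583: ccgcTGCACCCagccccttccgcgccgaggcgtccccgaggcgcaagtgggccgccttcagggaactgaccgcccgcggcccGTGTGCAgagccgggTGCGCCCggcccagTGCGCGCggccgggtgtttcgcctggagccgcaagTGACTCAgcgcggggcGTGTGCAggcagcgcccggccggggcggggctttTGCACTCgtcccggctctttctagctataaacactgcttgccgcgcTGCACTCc
MT1X, chr16:56682220-56682469: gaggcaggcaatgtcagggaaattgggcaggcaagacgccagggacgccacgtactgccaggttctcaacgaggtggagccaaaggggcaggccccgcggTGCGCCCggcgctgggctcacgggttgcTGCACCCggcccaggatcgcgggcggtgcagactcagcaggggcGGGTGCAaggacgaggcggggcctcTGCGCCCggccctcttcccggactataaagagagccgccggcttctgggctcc
MT1H, chr16:56669564-56669813: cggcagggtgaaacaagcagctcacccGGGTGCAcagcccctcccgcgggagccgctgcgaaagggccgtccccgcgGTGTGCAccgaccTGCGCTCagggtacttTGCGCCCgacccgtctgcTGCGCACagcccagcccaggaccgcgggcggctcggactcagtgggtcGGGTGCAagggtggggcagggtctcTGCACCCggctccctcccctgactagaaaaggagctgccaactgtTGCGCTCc
MT2A held 7 MRE cores, 5 on the gene's strand and 2 on the other, and the nearest began 8 bases before the start. MT1X held 4 and MT1H held 8. One or more cores were present in 24.8% of the 35116 promoters of the same length, 4 or more in 0.37% and 6 or more in 0.05%. An AP-1 site was found in MT2A, 104 bases before the start, and in 4.2% of all promoters. The letters TATAAA were found 29 bases before the start of MT2A and 30 before that of MT1X, against 6.8% of all promoters. MT1H had neither an AP-1 site nor TATAAA in this window. No capital runs overlapped, the GC content was 73.2% for MT2A, 70.0% for MT1X and 70.4% for MT1H, and a match in letters does not show a bound factor.

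MT2A, the member with the most counts in stimulated cells, was at 16.8, 16.2 and 18.8 CPM in the 3 NC libraries. In EUC it was at 271, 294 and 531 CPM, and in EPL at 366, 263 and 222 CPM. In SUC it was at 163, 114 and 207 CPM, and in SPL at 218, 193 and 176 CPM. Every stimulated library was thus above every NC library, and the lowest *E. coli* library (EPL3) was above the highest *S. aureus* library (SPL1). The group means were 17.3 ± 1.40 CPM in NC, 365 ± 144 in EUC, 284 ± 73.8 in EPL, 196 ± 21.2 in SPL and 161 ± 46.2 in SUC (SD, n = 3). The log2 fold change against NC was 4.40 (SE 0.279) for EUC, 4.04 (SE 0.276) for EPL, 3.22 (SE 0.268) for SUC and 3.50 (SE 0.271) for SPL. Without EUC3, EPL1 and SUC3 these were 4.03, 3.82, 3.01 and 3.51.

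**Figure D1:**
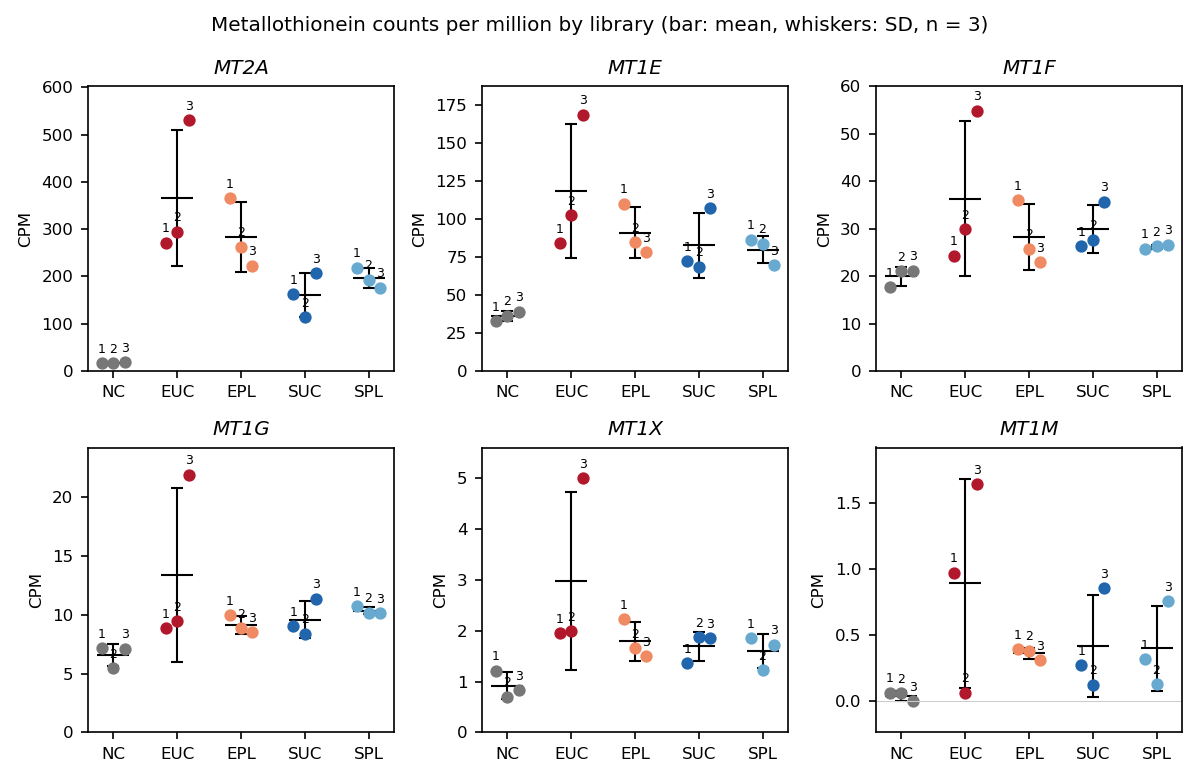
CPM (linear axis that includes 0, a separate scale for each gene) of the 6 tested metallothioneins in each of the 15 libraries; numbered points are libraries, the bar is the group mean and the whiskers are its SD (n = 3). MT2A runs from 16.2 to 18.8 CPM in NC and from 114 to 531 CPM in stimulated cells, and EUC3 is the highest library for every gene shown.

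MT1E (ENSG00000169715), a zinc-binding isoform like MT2A, was the most counted metallothionein of NC cells, at 32.8, 36.4 and 38.9 CPM. It was at 84.1, 103 and 168 CPM in EUC, at 110, 84.8 and 78.2 CPM in EPL, at 72.1, 68.6 and 107 CPM in SUC, and at 86.2, 83.8 and 69.4 CPM in SPL. No stimulated library reached down to NC, while the stimulated groups overlapped each other. The log2 fold change against NC was 1.71 (SE 0.222) for EUC, 1.34 (SE 0.221) for EPL, 1.19 (SE 0.221) for SUC and 1.15 (SE 0.221) for SPL. Without EUC3, EPL1 and SUC3 these were 1.37, 1.18, 0.97 and 1.15.

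MT1F (ENSG00000198417) and MT1G (ENSG00000125144) had smaller differences from NC. MT1F was at 17.7, 21.1 and 21.2 CPM in NC, and its group means were 36.4 ± 16.3 CPM in EUC, 28.2 ± 6.90 in EPL, 26.2 ± 0.439 in SPL and 29.9 ± 5.08 in SUC (SD, n = 3). Its log2 fold changes were 0.86, 0.50, 0.58 and 0.39 for EUC, EPL, SUC and SPL, and 0.44, 0.29, 0.44 and 0.40 without EUC3, EPL1 and SUC3. The lowest stimulated library, EPL3 at 22.9 CPM, was close to the highest NC library. MT1G was at 7.17, 5.47 and 7.09 CPM in NC. It was at 8.85, 9.42 and 21.9 CPM in EUC, where EUC3 alone set the mean apart, and its means were 9.11 ± 0.772 CPM in EPL, 10.4 ± 0.333 in SPL and 9.58 ± 1.57 in SUC. Its log2 fold changes were 1.02, 0.47, 0.54 and 0.65 in the order EUC, EPL, SUC and SPL, and the EUC value was 0.47 without EUC3, EPL1 and SUC3.

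MT1X (ENSG00000187193), a member whose counts are uncertain for the overlap named above, had 45 counts in the 3 NC libraries together, at 1.22, 0.706 and 0.835 CPM. Its means were 2.98 ± 1.75 CPM in EUC, 1.80 ± 0.385 in EPL, 1.60 ± 0.332 in SPL and 1.70 ± 0.286 in SUC (SD, n = 3). EUC3, at 5.00 CPM, was again the highest library, and the lowest stimulated library, SPL2 at 1.22 CPM, was level with NC1. The log2 fold changes against NC were 1.69 for EUC, 0.97 for EPL, 0.89 for SUC and 0.80 for SPL. Without EUC3, EPL1 and SUC3 these were 1.10, 0.79, 0.83 and 0.81, and leaving out EUC3 alone also took the EUC value to 1.10.

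The remaining members were at or near 0. MT1M had 2 counts in NC, 41 in EUC, 17 in EPL, 18 in SPL and 19 in SUC, each over 3 libraries, and passed the filter only through its stimulated libraries. The ratio of normalized counts to NC was 21.9 (5.69 to 187) for EUC, 8.94 (2.12 to 79.8) for EPL, 10.2 (2.47 to 90.7) for SUC and 9.73 (2.33 to 86.5) for SPL, with exact binomial 95% intervals that cover counting error only. Of the 41 counts in EUC, 25 came from EUC3, and library EUC2, at 0.0641 CPM, had no more than NC1. The fitted log2 fold change of EUC, 4.21, was 3.43 without EUC3 and ran from 3.43 to 4.77 with 1 library left out, and with 2 NC counts it depends on the prior count. MT1A had 1 count in NC, 3 in EUC, 1 in EPL, 0 in SPL and 3 in SUC, too few for a fold. MT1H, whose promoter held the most MRE cores of the 3 printed, had 0 counts in all 15 libraries, where 3 counts over all of them would be 0.0128 CPM. The 13 other rows of the family had 121 counts in all libraries together, against 75545 for the 8 members, and 7 of the 13 had none. The only ones with at least 10 were MT1L with 43, MT1XP1 with 39, MT2P1 with 16 and MT3 with 14.

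The contrasts with NC chose the family, so the following counts are no test of it and nothing is read from them. The thresholds of the study (adjusted p of at most 0.01 and a fold change of at least 2) were met upward by 5 of the 6 tested members in EUC, one of them MT1M, and by 2 in each of EPL, SUC and SPL. Of all tested genes, 9.43% met them upward in EUC, 9.38% in EPL, 7.76% in SPL and 6.82% in SUC. MT2A and MT1E met them in all 4 groups, and MT1G, MT1X and MT1M in EUC alone; without EUC3 the EUC count was 2. The median log2 fold change of the 6 was 1.70 in EUC, 1.15 in EPL, 0.97 in SPL and 1.04 in SUC, beside all-gene medians between -0.01 and 0.01.

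**Figure D2:**
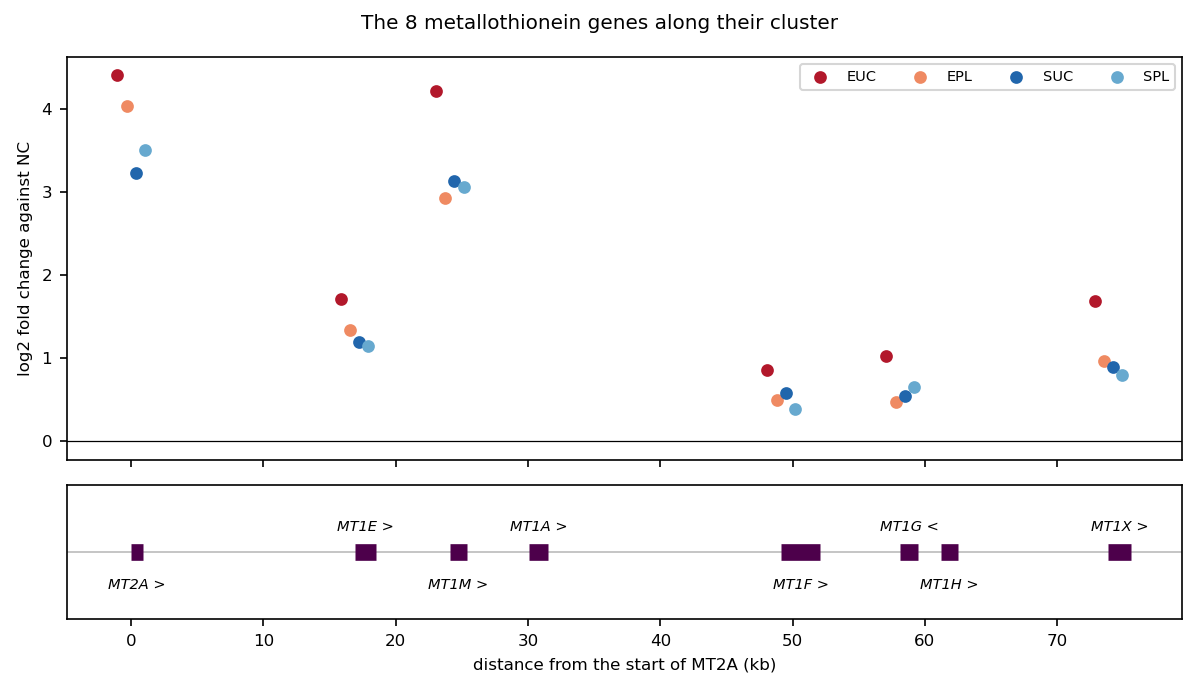
The 8 genes along their cluster, as distance in kb from the start of MT2A (lower panel, arrows give the strand), with the log2 fold change against NC of the 6 tested members in each stimulated group (upper panel, points shifted sideways by group). MT2A, at the left end, runs from 3.22 to 4.40; MT1M rests on 2 NC counts, and MT1A and MT1H have no value.

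The family's make-up differed between stimulated and NC cells. The summed level of the 8 members was 80.8 ± 5.67 CPM in NC, 538 ± 214 in EUC, 414 ± 98.7 in EPL, 314 ± 29.1 in SPL and 285 ± 72.1 in SUC (SD, n = 3). MT2A made up 20.3 to 22.1% of that sum in NC libraries. Its share was 67.2 to 69.3% in EUC, 66.6 to 69.7% in EPL, 61.4 to 63.6% in SPL and 51.7 to 59.9% in SUC. The share of MT1E went the other way, from a mean of 44.6% in NC to 22.1% in EUC, 22.2% in EPL, 25.4% in SPL and 29.0% in SUC, although its level was higher. MT1F had 24.7% of the sum in NC and 6.7% in EUC. The SD of the MT2A share in EUC, which holds the outlying library EUC3, was 1.07 percentage points, against 1.55 in EPL, 1.19 in SPL and 4.15 in SUC. MT2A, MT1E, MT1F, MT1G and MT1X were all higher in EUC3 than in the other EUC libraries, by 0.86 to 1.29 on the log2 CPM scale. All 6 *E. coli* libraries had a larger MT2A share than all 6 *S. aureus* libraries. This is a description, since the share is made from the members.

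**Figure D3:**
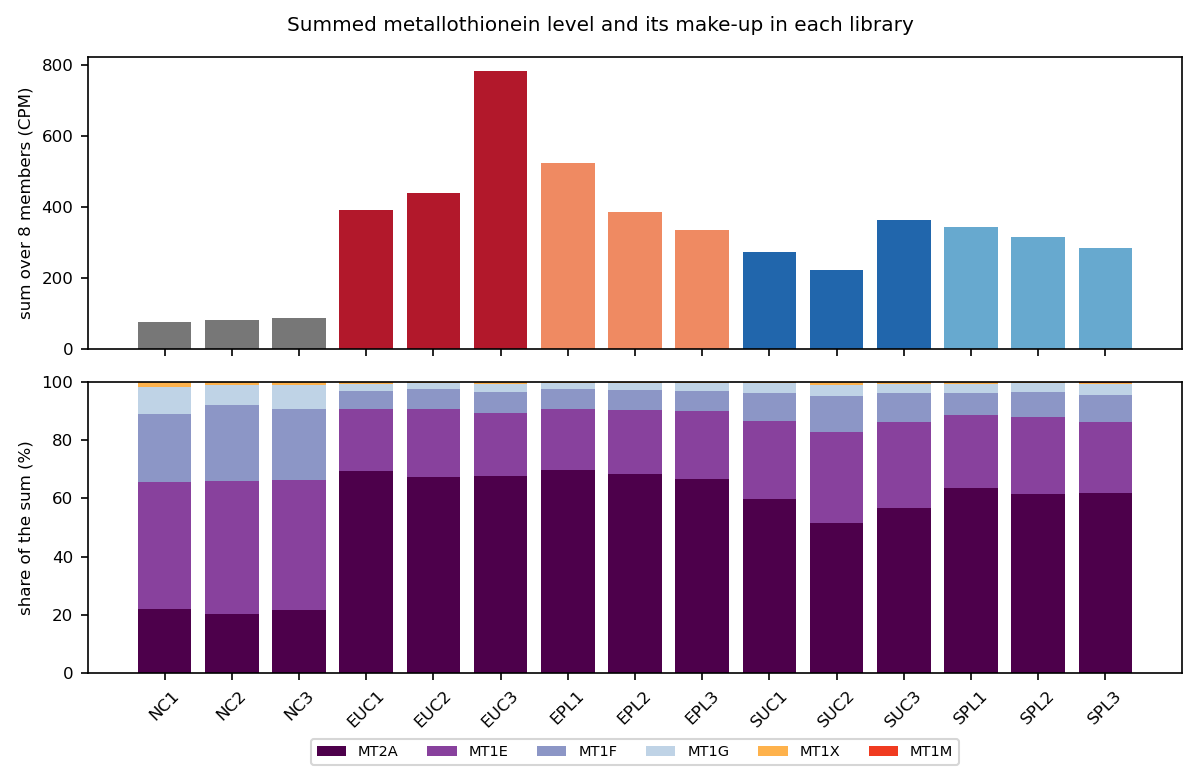
Sum of the 8 metallothioneins in CPM for each library (upper panel, bars from 0) and the percentage of that sum from each member (lower panel, stacked to 100%). MT2A takes 20.3 to 22.1% in NC and between 51.7 and 69.7% in stimulated libraries.

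Levels can be compared between genes only per length. In CPM per kb of the canonical transcript, MT1E (48.3 ± 4.11), MT1F (47.0 ± 4.69) and MT2A (43.0 ± 3.49) lay within their spread of each other in NC, above MT1G at 16.0 ± 2.34 and MT1X at 2.27 ± 0.656 (SD, n = 3). In EUC, MT2A was at 911 ± 358 CPM per kb, MT1E at 159 ± 59.4 and MT1F at 85.5 ± 38.3. The order in NC depended on the length used: per kb of all annotated exons, MT1E was at 34.3, MT2A at 18.9 and MT1F at 10.8 CPM per kb.

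The next question was whether the stimulated groups differed from each other, which the choice of the family did not use. Over the 6 *E. coli* and 6 *S. aureus* libraries, MT2A was higher with *E. coli* BEVs by a log2 fold change of 0.86 (SE 0.169, 95% interval 0.50 to 1.22, adjusted p = 0.0037 with edgeR's quasi-likelihood test). This passes the adjusted p but not the fold threshold. Of all tested genes, 3.87% passed that p in either direction and 0.686% also the fold. The value was 0.66 without EUC3 (edgeR adjusted p = 0.00299), 0.87 with the length trend removed and 0.67 without EUC3, EPL1 and SUC3. With 1 library left out at a time it ran from 0.66 to 0.97, and the adjusted p of edgeR exceeded 0.01 in 4 of 15 cases, without EPL1, SUC2, SPL2 or SPL3, to at most 0.0177. It was also above 0.01 with only the 4 stimulated groups in the fit (0.85, edgeR adjusted p = 0.0113). Over the short genes outside the family, the median difference between the species was -0.05 on the log2 CPM scale, against 0.86 for MT2A.

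None of the other 5 tested members passed the test between the species. The edgeR log2 fold change was 0.35 for MT1E (95% interval 0.03 to 0.68, adjusted p = 0.23) and 0.48 for MT1X (-0.05 to 1.02, adjusted p = 0.364). It was 0.19 for MT1F (-0.15 to 0.54), 0.15 for MT1G (-0.24 to 0.54) and 0.48 for MT1M (-0.77 to 1.72). The intervals of MT1E, MT1F and MT1G leave out a 2-fold difference in either direction, and those of MT1X and MT1M do not. Without EUC3 the values of MT1F and MT1G turned to -0.03 and -0.14. Without EUC3, EPL1 and SUC3, MT1E gave 0.21 (edgeR adjusted p = 0.0312), MT1X 0.12 and MT1M 0.58.

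Between single groups, MT2A was called in 1 of 6 pairs, EUC against SUC, where it was higher by 1.18 (SE 0.240, 95% interval 0.67 to 1.69, edgeR adjusted p = 0.00653). Of all tested genes, 0.768% were called in that pair. The call was lost in 10 of 15 fits with 1 library left out, among them those without EUC3 (0.80, edgeR adjusted p = 0.0194), without SUC2 (0.98, 0.0559) and without any single NC or SPL library, and it was also lost with only these groups in the fit (1.18, adjusted p = 0.119). The pair was still called without EUC3, EPL1 and SUC3 together (1.02, SE 0.112, edgeR adjusted p = 4.43e-07). These libraries were chosen after seeing the data, and each was the highest of its group for MT2A. Leaving them out narrows the spread by that choice, so this and other p-values without them add no support. The other pairs of unlike species were not called for MT2A. They were EUC against SPL (0.90, interval 0.39 to 1.40), EPL against SUC (0.82, 0.31 to 1.32) and EPL against SPL (0.53, 0.03 to 1.04), with edgeR adjusted p = 0.0672, 0.0724 and 0.537. Without EUC3, EPL1 and SUC3 these pairs gave 0.52, 0.81 and 0.31 with edgeR adjusted p = 0.00143, 1.83e-05 and 0.0569, so that the first 2 passed the adjusted p but not the fold threshold. In these pairs 0.221%, 0.628% and 0.122% of all tested genes were called.

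The 2 ways of isolating BEVs were compared within each species, a comparison that the paper also made. EPL against EUC gave -0.37 for MT2A (95% interval -0.87 to 0.14, edgeR adjusted p = 0.947), which became 0.01 without EUC3. SPL against SUC gave 0.28 (-0.22 to 0.79, adjusted p = 0.891). These were -0.22 (edgeR adjusted p = 0.69) and 0.50 (0.0311) without EUC3, EPL1 and SUC3. The intervals leave out a 2-fold difference in either direction for MT2A, MT1E and MT1F in both species. In EPL against EUC they reached -1.10 for MT1G, -1.46 for MT1X and -2.94 for MT1M, and so do not leave one out. In SPL against SUC those of MT1G and MT1X left it out, and that of MT1M (-1.88 to 1.75) did not. No member was called, beside 0 genes in all called by edgeR in EPL against EUC, where 604 had an unadjusted p of at most 0.05, and 1 gene (0.00581%) in SPL against SUC. The difference of methods did not pass the test between the species for any member either (MT2A -0.65, interval -1.36 to 0.06, edgeR adjusted p = 1; 0 of all genes were called), and was -0.72 for MT2A without EUC3, EPL1 and SUC3 (edgeR adjusted p = 0.0335). In the order of mean MT2A level, EUC, EPL, SPL, SUC and NC, no neighbours among the stimulated groups passed the test of their difference in the main fit. With no filter on low counts, EPL against SPL passed the adjusted p but not the fold threshold (0.52, edgeR adjusted p = 0.000192). The fold change was nearly that of the main fit (0.53, edgeR adjusted p = 0.537), so nothing is read from the smaller p.

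**Figure D4:**
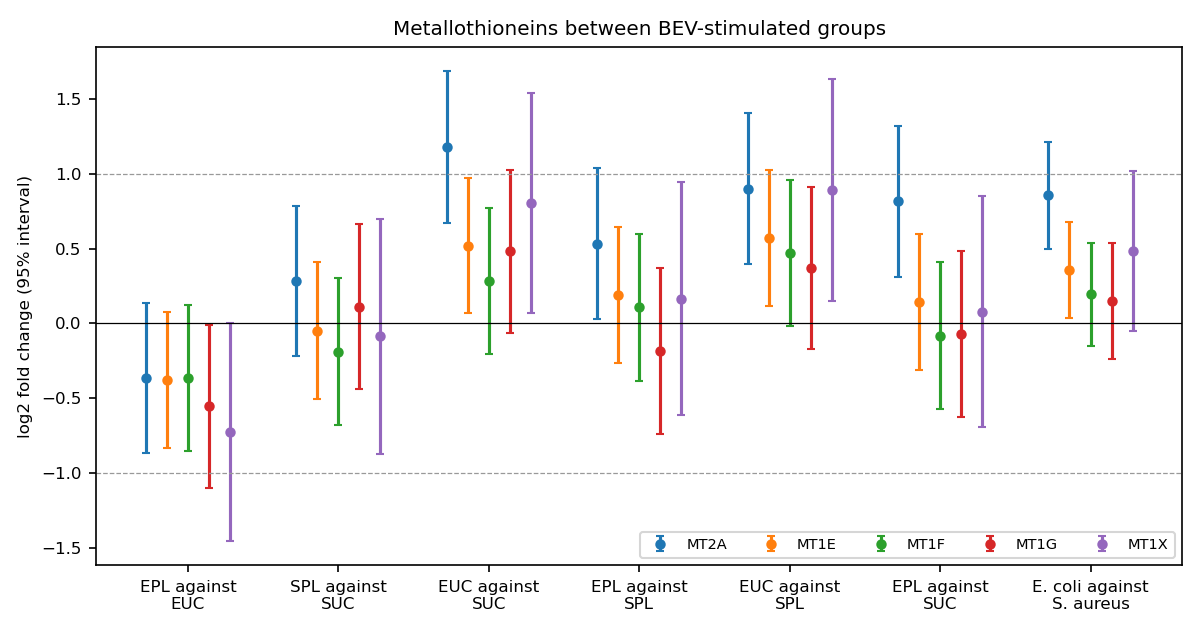
Log2 fold changes with 95% intervals of 5 metallothioneins for the 6 pairs of stimulated groups and for the *E. coli* against the *S. aureus* libraries; dashed lines mark a 2-fold change. The MT2A interval lies above 0 in every comparison of unlike species and spans 0 in both comparisons of isolation methods; MT1M, with few counts, is left out.

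The genes around metallothionein in metal handling were taken from 6 lists with 60 genes, of which 51 were tested. Against NC, 14 were called higher and 5 lower in EUC, the same numbers in EPL, and 13 higher and 3 lower in both SUC and SPL. The share called was 37.3% in EUC and EPL and 31.4% in SUC and SPL, beside 15.2%, 14.5%, 9.88% and 11.5% of all tested genes in EUC, EPL, SUC and SPL. The median log2 fold change of the 51 was 0.02, 0.07, 0.10 and 0.09 in that order, beside all-gene medians between -0.01 and 0.01. The lists were written with results of these counts known.

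MTF1 (ENSG00000188786), the zinc sensor that drives metallothionein genes, rose in every group. It was at 43.6 ± 2.94 CPM in NC, 204 ± 45.4 in EUC, 217 ± 38.5 in EPL, 209 ± 7.88 in SPL and 185 ± 34.4 in SUC (SD, n = 3). For EUC, EPL, SUC and SPL the log2 fold change was 2.22 (SE 0.170), 2.32 (SE 0.170), 2.09 (SE 0.169) and 2.27 (SE 0.170), with edgeR adjusted p = 1.07e-08, 6.8e-09, 3.69e-08 and 1.15e-08. EUC3, the highest library for the metallothioneins, was the lowest EUC library for MTF1 at 152 CPM. EPL1 (173 CPM) and SUC3 (148 CPM) were likewise the lowest of their groups for MTF1. These are the libraries named above in which short transcripts were counted more often and long ones less often. Between the species MTF1 gave 0.09 (95% interval -0.15 to 0.33).

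Of 7 tested zinc exporters, SLC30A1 and SLC30A4 rose in all 4 groups and none fell. SLC30A1, the exporter of the plasma membrane and itself a known MTF1 target, was at 70.8 ± 3.72 CPM in NC, 174 ± 17.0 in EUC, 151 ± 20.6 in EPL, 147 ± 13.0 in SPL and 157 ± 2.31 in SUC. Its log2 fold change was 1.30 in EUC, 1.10 in EPL, 1.05 in SPL and 1.15 in SUC (SE 0.104 each, edgeR adjusted p at most 4.06e-07). With the length trend removed it was 0.96 in both EPL and SPL, under the fold threshold, and the SPL value was 0.99 without SPL3. SLC30A4, which moves zinc into vesicles, had 4 counts over the NC libraries and 355 in EUC, 506 in EPL, 169 in SPL and 122 in SUC. It was the only gene of the 51 called between the species, at 1.53 (SE 0.269, edgeR adjusted p = 0.00146, beside 0.686% of all genes called). Its locus overlaps the antisense gene SLC30A4-AS1, and the strand setting of the counting is not given in the sources used here.

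Zinc importers went both ways. Of 11 tested, 2 rose and 2 fell in each *E. coli* group, and 1 rose and 1 fell in each *S. aureus* group. SLC39A8, the importer known to respond to NF-kappa B in monocytes, rose in all 4, from 36.5 ± 1.28 CPM in NC to 109 ± 11.8 in EUC, 107 ± 4.74 in EPL, 94.5 ± 7.58 in SPL and 90.4 ± 7.73 in SUC (log2 fold change 1.58 for EUC, 1.55 for EPL, 1.37 for SPL and 1.31 for SUC, edgeR adjusted p at most 9.48e-09). SLC39A10, another importer of the plasma membrane, fell in all 4, from 35.9 ± 3.26 CPM to means between 10.8 and 13.8 CPM (log2 fold change -1.74 for EUC, -1.61 for EPL, -1.54 for SPL and -1.38 for SUC, edgeR adjusted p at most 2.01e-08). SLC39A13 was called higher in EUC (1.28) and EPL (1.23), SLC39A11 lower in EUC (-1.05) and SLC39A4 lower in EPL (-1.13). In the other stimulated groups each of these genes went the same way, beyond every NC library, but under the fold threshold. By the adjusted p alone, 2 importers were higher and 4 lower in each of the 4 groups. SLC39A14, the importer best known from the acute phase of liver, was at 176 ± 8.35 CPM in NC and at means of 157 to 178 CPM in stimulated cells, and was not called.

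Copper and iron genes also went both ways. Of 11 tested copper genes, STEAP4 and SCO2 rose and STEAP3 fell in every group. STEAP3, a metalloreductase of endosomes, fell from 57.7 ± 2.75 CPM to 15.0 ± 1.91 in EUC and 21.8 ± 0.596 in SUC (log2 fold change -1.94 and -1.41, edgeR adjusted p = 6.89e-11 and 5.45e-09). SCO2 shares its locus with TYMP on the same strand, which makes its counts uncertain. Of 10 tested iron genes, FTH1, FTL, SLC11A2 and HMOX1 rose and SLC11A1 fell in every group. FTH1, the heavy chain of the iron store ferritin, went from 166 ± 10.4 CPM to 2343 ± 478 in EUC and 1448 ± 278 in SPL (log2 fold change 3.82 and 3.13), with the reservation that it has many processed pseudogenes. HMOX1, which frees iron from heme, went from 40.1 ± 1.36 CPM to 860 ± 133 in EUC, 786 ± 72.0 in EPL, 583 ± 20.2 in SPL and 547 ± 73.1 in SUC (edgeR adjusted p at most 2.75e-13).

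Among 12 genes of metal and heat stress, all of which were tested, 4 rose in every group. These were HMOX1, the glutathione enzyme subunit GCLM, the thioredoxin reductase TXNRD1 and the sulfiredoxin SRXN1, with log2 fold changes in EUC of 4.42, 1.63, 1.81 and 2.32. No heat shock gene of the list was called higher. HSPA1B, whose counts could be split with a near-identical copy, gave -1.01 in EUC and -0.96 in EPL and was called lower only in EUC, and HSPB1 gave -0.74 and -1.01 and was called lower only in EPL. Both calls lay at the fold threshold. That of HSPA1B was lost without NC1, NC2, EUC1 or EUC2 (-1.07 to -0.96 with 1 library left out), and that of HSPB1 without NC3, EPL2 or EPL3 (-1.21 to -0.90). Another gene overlaps the locus of MTF1, SLC30A4, SLC39A4, SLC39A8, SLC39A10, SLC39A11, SLC39A13, SLC39A14, SCO2, STEAP3, STEAP4, FTH1, SLC11A2, HSPA1B, TXNRD1 and SRXN1 on one strand or the other. In that respect alone, their counts are less certain than those of SLC30A1, FTL, HMOX1 or GCLM. Reads that map to more than one place could affect any of these genes.

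**Figure D5:**
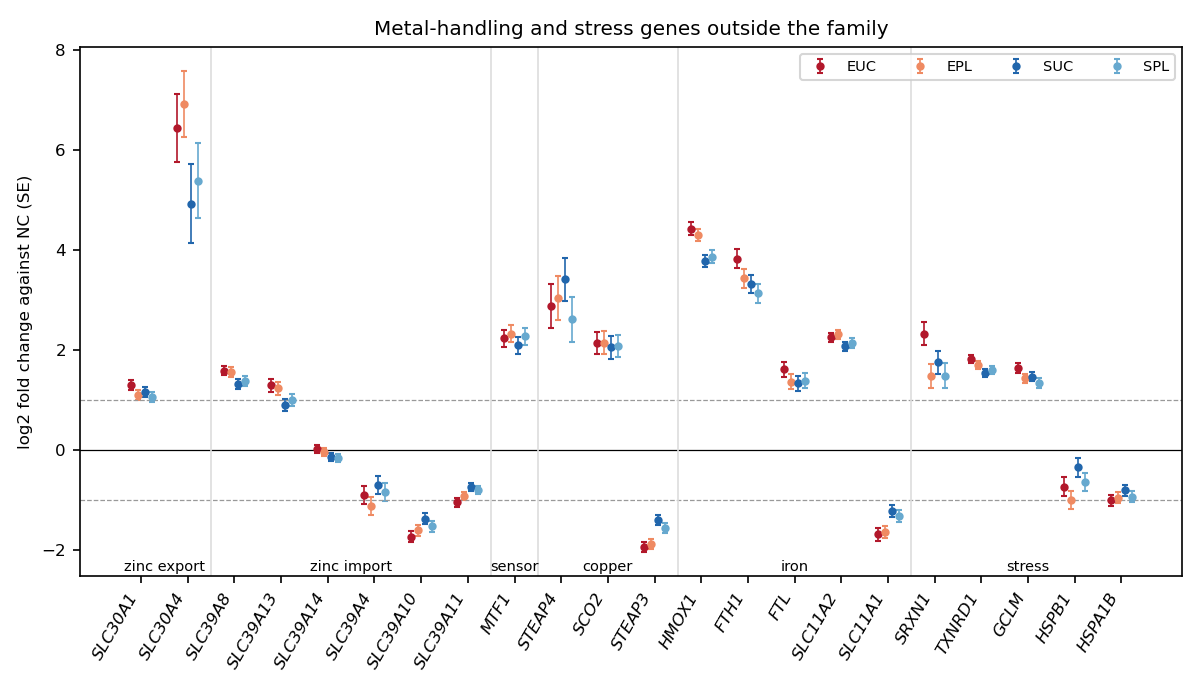
Log2 fold change against NC (point) with its SE (whisker) for 22 genes of metal handling and stress outside the family in the 4 stimulated groups; dashed lines mark a 2-fold change. MTF1 lies between 2.09 and 2.32 and HMOX1 between 3.77 and 4.42, while SLC39A14 stays between -0.16 and 0.02.

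Among 14521 candidates, DYNLT1, EMC3, MAP1LC3A and PTP4A2 were among the 5 genes whose log2 CPM had the highest correlation with the log2 of the summed CPM of the 8 members over the 15 libraries. The dynein light chain gene DYNLT1 had a Pearson correlation of 0.991 over all libraries and 0.954 over the 12 stimulated ones, and the autophagy gene MAP1LC3A had 0.989 and 0.956. DYNLT1 was at 22.6 CPM in NC and at 65.3, 58.4, 50.4 and 49.2 CPM in EUC, EPL, SUC and SPL. These correlations describe libraries that share group, depth and the same tendency toward short transcripts, and the last was not removed from them.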

How the data were processed

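RNA of 15 THP-1 libraries was analysed; groups follow the titles and treatments in the labels. After Trizol extraction the authors built libraries with the NEBNext Ultra kit, read both ends of each fragment and aligned to hg38. The submitters' processing notes name FastQC 0.11.5, HISAT2 2.1.0, StringTie 1.3.3b, featureCounts and DESeq 1.28.0. Neither strand setting, handling of multi-mapped reads nor annotation release is stated there or in the paper. The deposited values are whole-number read counts per gene, without normalization; totals per library set the counting error, and 0 columns were left unused.

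The counts were analysed with edgeR 4.0.16 in R 4.3.3: filterByExpr, TMM, and one quasi-likelihood model (glmQLFit, glmQLFTest) over all 15 libraries without a replicate block, with Benjamini-Hochberg adjustment over 17198 genes. Genes were called, with the thresholds of the study's own DESeq2 analysis, at an adjusted p up to 0.01 with a fold of 2 or more. The biological coefficient of variation (common) came to 0.118. Log2 CPM used a prior count of 2. Intervals of fold changes are 95% intervals from the fit; intervals of ratios of few counts are exact binomial (scipy 1.17.1), and a floor is 3 counts. Lengths, overlaps and shared windows come from GENCODE 44.

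Named were all members, other family rows with at least 10 counts, list genes called against NC or between the species, SLC30A1, MTF1, SLC39A8 and SLC39A14 in any case, and the 5 genes most correlated with the family, of which 1 is not reported here. The members and lists were chosen with earlier results of these data known. Alternatives were DESeq2 1.42.0, other size factors and filters, a replicate block, no fold threshold, only the groups compared, each library left out, and 2 chosen after seeing the data: removal of a spline trend (5 degrees of freedom) of counts on transcript length in each library, and leaving out EUC3, EPL1 and SUC3. The scripts were tested on simulated data.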

Additional observations from a re-analysis of the deposited data

Results flagged for a closer look

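Between the bacterial species, 1 of the 6 tested members and 4 of the 51 tested metal genes passed the adjusted p of the test of the difference itself (edgeR, *E. coli* minus *S. aureus* libraries), beside 3.87% of all tested genes. SLC30A4 alone among them also passed the fold threshold, as did 0.686% of all genes. MT2A differed by 0.86 on the log2 scale over all libraries and by 1.18 between EUC and SUC, the second of which depends on single libraries. The vesicular zinc transporter SLC30A4 differed by 1.53 over all libraries and by 2.0 between EPL and SUC. HMOX1 differed by 0.54. The iron exporter SLC40A1, named here after its values were seen, differed by 0.55, at 10.5 and 11.0 CPM in EUC and EPL against 6.87 and 7.88 in SUC and SPL and 13.3 in NC. STEAP3 differed by -0.43. Since the *E. coli* BEVs were given at 1 μg/mL and the *S. aureus* BEVs at 10 μg/mL, species and dose cannot be told apart in any of these.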

How the results depend on the processing

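The count of members called in EUC against NC fell from 5 to 2 with only the groups compared in the fit and without EUC3, EPL1 and SUC3, and ran from 2 to 5 with 1 library left out (2 without EUC3 or NC2, 3 without NC1 or NC3). In SUC against NC it fell from 2 to 1 without EUC3, EPL1 and SUC3 and ran from 1 to 2, the 1 being without SUC3, where MT1E was at 0.96. In EUC against SUC it fell from 1 to 0 with only the groups compared and ran from 0 to 1, with the call lost without any NC library, EUC3, EPL2, SUC1, SUC2 or any SPL library. Fewer libraries enter these fits by construction; no other cause was tested. Without the fold threshold, 1 member passed between the species in place of 0, and the metal lists gave 29, 26, 26 and 4 genes for EPL, SUC, SPL and the species in place of 19, 16, 16 and 1. Also without it, zinc importers went from 1 higher and 1 lower to 2 and 4 in SUC and in SPL, and metal and heat stress genes from 4 and 1 to 4 and 6 in EUC and 4 and 7 in EPL, and from 4 and 0 to 4 and 3 in SUC and 4 and 4 in SPL. Signs turned for MT2A in EPL against EUC (0.01 without EUC3, range -0.59 to 0.01 with 1 library left out) and, between the species, for MT1F (-0.06 without EUC3, EPL1 and SUC3, -0.03 without EUC3, range to 0.30) and MT1G (-0.10 and -0.14, range to 0.25). The other counts for the members and for the 6 metal lists together stayed within 1.5 times; single lists were counted only with and without the fold threshold. MT2A between the species gave 0.85 with only the groups compared (edgeR adjusted p = 0.0113). With no filter on low counts, 3 pairs passed the adjusted p for MT2A but not the fold threshold. They were EUC against SPL (0.90, edgeR adjusted p = 1.44e-14), EPL against SUC (0.80, 1.33e-11) and EPL against SPL (0.52, 0.000192). The fold changes were nearly those of the main fit (0.90, 0.82 and 0.53, edgeR adjusted p = 0.0672, 0.0724 and 0.537). DESeq2 gave adjusted p = 0.0634, 0.0851 and 0.712 for these pairs. The smaller p-values thus belong to that setting of the fit alone, and nothing is read from them. Same-numbered libraries did not deviate together on average (mean correlation 0.009 over 30 pairs of libraries, -0.452 to 0.525, 7 of them over 0.1). The mean was -0.004 over 60 pairs of unlike number. The highest same-numbered value was between EUC3 and SUC3, and the lowest between EUC1 and EPL1. The tendency of EUC3, SUC3 and EPL1 toward short transcripts enters these correlations, so they do not settle whether the numbers pair the samples. With the replicate block, MT2A gave 0.86 between the species (edgeR adjusted p = 0.00395) and 1.18 in EUC against SUC (0.00691), and MT1G in EUC against NC fell to 0.98, under the fold threshold. Low counts limit MT1M, MT1A, MT1H and MT1X, and in NC also SLC30A4 and STEAP4.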
